A study of Taeniopygia guttata with 5 samples.

Results

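G protein-coupled receptors sense transmitters, peptides and other signals outside the cell and act through G proteins, each made of an alpha, a beta and a gamma subunit. The G proteins in turn set the activity of adenylyl cyclases, which make cyclic AMP, and of phospholipases C, which release inositol trisphosphate and diacylglycerol. Phosphodiesterases break cyclic nucleotides down, RGS proteins speed the shut-off of G protein alpha subunits, and protein kinase A is the main effector of cyclic AMP. In songbirds these pathways carry the effects of dopamine, noradrenaline, opioids and neuropeptides on the song system.

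The genes described here were picked by symbol. They are the transcripts of the deposited tables named as numbered GPR receptors, adrenergic, adenosine, dopamine, histamine, neuropeptide Y, somatostatin and opioid receptors, G protein subunits, RGS proteins, adenylyl cyclases, phosphodiesterases, protein kinase A subunits and beta or gamma phospholipases C, without 8 symbols of the striatal type. The 8 left out were PDE10A, RGS10-2, GNG7, GPR52, DRD2, DRD3, ADORA2A and OPRK1. This rule gave 51 of the 4675 listed transcripts, all protein-coding. They comprise 1 ligand, 5 monoamine and adenosine receptors, 4 peptide receptors, 19 orphan and adhesion receptors, 6 G protein subunits, 3 genes of the RGS group, 2 adenylyl cyclases, 6 phosphodiesterases, 3 protein kinase A subunits, 1 phospholipase C and 1 receptor kinase. Some symbols matched the rule although their products act differently. ADCYAP1 is the peptide PACAP, a ligand that raises cyclic AMP, ADRBK1 is a kinase of activated receptors, RGS9BP binds and anchors an RGS protein, PDE6D is a carrier of prenylated proteins, and GPR89B is a channel of the Golgi.

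RNA-Seq was made from male zebra finches (Taeniopygia guttata) in HVC, a song nucleus of the forebrain, and in whole brain. The groups were HVC at 100 d, in adulthood, with 1 library, HVC at 45 d, when juveniles learn song, with 2 libraries named R92L1 and R92L2, whole brain at 100 d with 1 library and whole brain at 45 d with 1 library. Each HVC library pooled 4 males and each whole brain library 2 males, and no bird had sung or heard song in the hour before. HVC was cut from sagittal slices and can hold tissue of the adjoining ventricular zone, and whole brain holds HVC itself. No source tells whether the 45 d HVC pair stems from different birds. The p-values therefore reflect the spread of that pair, which can be purely technical. Tissue and sequencing run cannot be told apart, because the run labels of HVC and whole brain differ. Age and housing cannot be told apart either. Juveniles lived with their parents up to collection, and adults had been moved to group cages.

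Each of the 4 tables (HVC against whole brain at 100 d and at 45 d, and 100 d against 45 d in HVC and in whole brain) lists 1800 transcripts in the order of the authors' p-values. A library's count is therefore at hand only where a table that uses it lists the transcript. Of the 51 members, 31 stood in 1 table, 19 in 2 tables and 1, SSTR3, in 3 tables. Counts of all 5 libraries were at hand for 12 members. The 45 d HVC counts, without which there is no repeated group and no test, were at hand for 31 members. After a filter on low counts 28 members entered at least 1 test. The listed counts summed to 495316 to 1014565 reads per library, which is not the depth, and library sizes relative to HVC at 100 d were estimated as 0.934 and 1.13 for the 45 d HVC libraries, 1.5 and 1.81 for the 100 d and the 45 d library of whole brain. Values below are reads divided by these sizes, called size-scaled reads, ratios are taken after this scaling also where raw reads are printed, and intervals of read ratios cover counting error only. Among members with at least 20 reads over the 45 d HVC libraries together, 2 of 22 differed by over 2-fold within the pair, against 247 of 2391 listed transcripts. The 6 transcripts of HVC marker genes, such as ALDH1A2 and CRHBP, were all higher in HVC at both ages by edgeR's quasi-likelihood test at an adjusted p under 0.1, and 3 to 6 of them were under other scalings and tests. The study names ALDH1A2, CRHBP, NTS and CADPS2 as enriched in adult HVC in these same data, so this is no independent check.

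The first question was which signalling genes differ between HVC and the brain as a whole. A transcript was called at an adjusted p under 0.1 (edgeR quasi-likelihood test, Benjamini-Hochberg adjustment). At 100 d, 5 of 14 tested members were called, with 2 higher and 3 lower in HVC, where 19.4% of the tested transcripts were called, 8.3% higher and 11.1% lower. At 45 d, 8 of 18 tested members were called, with 1 higher and 7 lower in HVC, where 31.1% of all tested transcripts were called, 10.8% higher and 20.2% lower. The called genes were 1 phospholipase C, 3 phosphodiesterases by symbol, 1 protein kinase A subunit, 3 orphan receptors and 1 RGS protein. Among the phosphodiesterase symbols is PDE6D, the carrier named above. Of the called genes, 4 were called at both ages. Members were listed by small p-values and are described for their call or fold. Where HVC and whole brain values stand apart below, this goes with that choice and is no separate support. The direction of the calls depended on the scaling. At 100 d there were 0 higher and 0 lower members with TMM factors, 1 and 0 with relative log expression factors, and 2 and 0 with sums of listed counts. At 45 d there were 0 higher and 1 lower with TMM factors, 1 and 0 with relative log expression factors, and 0 and 0 with sums of listed counts.

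The median log2 fold change of the tested members was -1.07 at 100 d, against -0.42 for all tested transcripts, and -1.21 at 45 d, against -0.74 for all. Other scalings of the libraries moved the median of all transcripts upward by 0.32 to 0.53 at 100 d and by 0.33 to 0.58 at 45 d on the log2 scale. They left 5 members above and 9 below 0 at 100 d, and 6 above and 12 below 0 at 45 d. The values below 0 nearest to it were -0.82 for GPR146 at 100 d and -0.65 for DRD5 at 45 d. Both lie farther from 0 than these shifts reach. The counts could thus not change and are no support for the direction. Of all tested transcripts, 45.8% lay above 0 at 100 d with the sizes used here and 49.7% to 51.8% with the others. For 45 d this was 44.4% with the sizes used here and 47.7% to 49.6% with the others. The share of calls over all transcripts that were higher in HVC was 42.8% at 100 d with the sizes used here and 71.4% to 88.6% with the others. At 45 d it was 34.9% with the sizes used here and 53.8% to 85.1% with the others. The 2 tissue comparisons share the 45 d HVC libraries as their source of spread. At 100 d the trend over all transcripts, not a transcript's own spread, set the error. In the other fits the trend also outweighed a transcript's own spread. Its weight, in prior degrees of freedom, was 34.7 between tissues at 45 d and 8.65 for age in HVC. It was 34.7 for age in whole brain and 637 for the dependence of age on tissue.

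**Figure D1:**
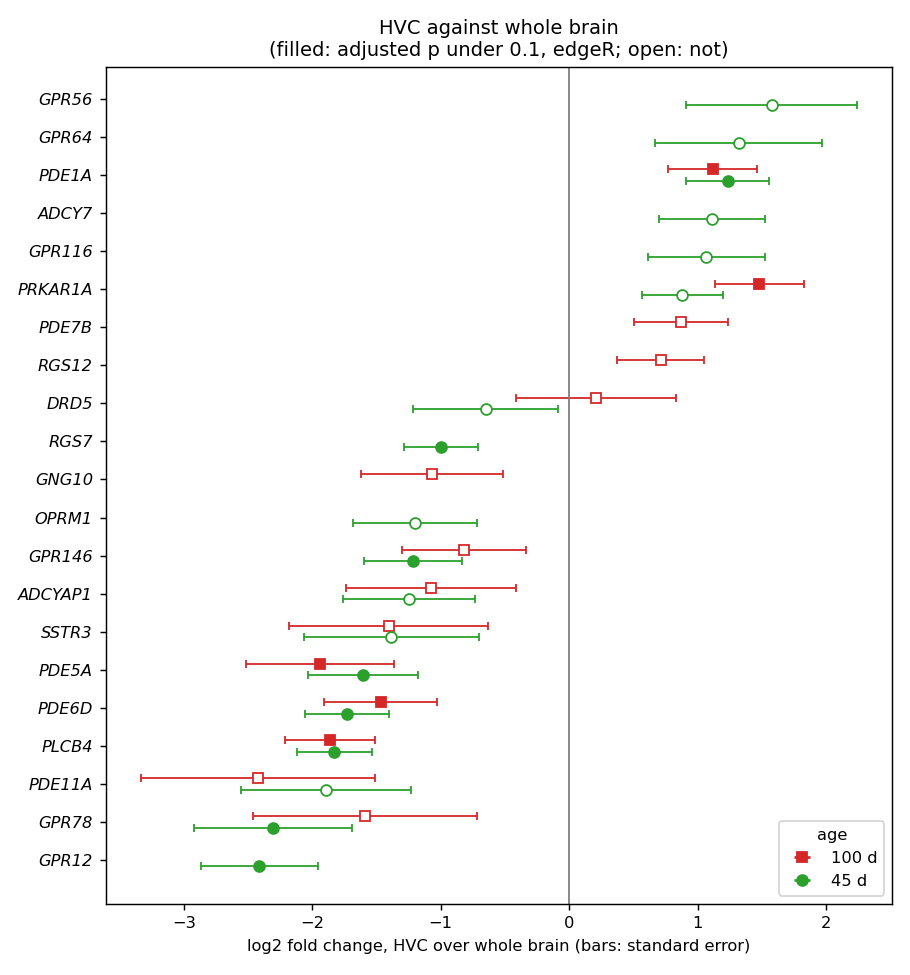
Log2 fold change of HVC over whole brain (x axis) for the 21 members tested at 100 d (squares) or 45 d (circles), with bars of 1 standard error; filled symbols have an adjusted p under 0.1. The called members above 0 are PDE1A and PRKAR1A, and PLCB4, PDE5A and PDE6D lie below 0 with filled symbols at both ages.

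PLCB4, a phospholipase C that G proteins of the Gq class activate, had the smallest adjusted p of the members at both ages. It lies on chromosome 3 (24903971 to 24987387, taeGut1, minus strand). Its size-scaled reads were 715 in HVC at 100 d and 557 and 698 in the 45 d HVC pair, against 2595 in whole brain at 100 d and 2230 at 45 d. No HVC library came near either whole brain library. The log2 fold change was -1.86 (standard error 0.35, adjusted p = 7.4e-05, edgeR) at 100 d and -1.83 (standard error 0.29, adjusted p = 0.000125, edgeR) at 45 d. Both calls were kept with DESeq2 and with limma and voom, but the call at 100 d was lost under all other scalings and that at 45 d under all but TMM factors.

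Whole brain includes the cerebellum, and cerebellar markers moved in the same direction. Of 16 cerebellar marker symbols, 9 had counts at hand, and of these 4 of 6 tested transcripts were lower in HVC at 100 d and 6 of 9 at 45 d, numbers that were 1 to 3 at 100 d and 3 to 6 at 45 d under other scalings and tests. The summed size-scaled reads of the 7 with all 5 counts were 324 in HVC at 100 d and 221 and 379 in the 45 d HVC pair, against 3485 in whole brain at 100 d and 3631 at 45 d. GABRA6, a receptor subunit of cerebellar granule cells, had 1 read in HVC at 100 d and 0 and 0 in the 45 d HVC pair, against 21 in whole brain at 100 d and 32 at 45 d. Myelin markers were lower in HVC with the sizes used here, 1 of 3 tested at 100 d and 4 of 4 at 45 d, but none was called under any other scaling or with DESeq2. They had summed size-scaled reads of 1395 in HVC at 100 d and 1441 and 1676 in the 45 d HVC pair, against 3817 in whole brain at 100 d and 3442 at 45 d. The part of these cell types in the members' differences was not tested, and in such pooled tissue fewer cells of a type and less RNA per cell cannot be told apart.

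The phosphodiesterases moved in both directions. PDE1A, which calcium and calmodulin activate to break down cyclic AMP and cyclic GMP, was the only phosphodiesterase called higher in HVC. It had 2349 size-scaled reads in HVC at 100 d and 2476 and 2256 in the 45 d HVC pair, against 1082 in whole brain at 100 d and 1007 at 45 d. The 3 HVC libraries stood apart from both whole brain libraries and close to each other. The log2 fold change was 1.12 (standard error 0.35, adjusted p = 0.0962, edgeR) at 100 d and 1.23 (standard error 0.33, adjusted p = 0.0333, edgeR) at 45 d. Each call was lost under 3 of the 5 other scalings and tests.

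PDE5A, which is specific for cyclic GMP, was lower in HVC at both ages. Its size-scaled reads were 27 in HVC at 100 d and 23.6 and 38.2 in the 45 d HVC pair, against 104 in whole brain at 100 d and 94.7 at 45 d. The log2 fold change was -1.94 (standard error 0.58, adjusted p = 0.067, edgeR) at 100 d and -1.60 (standard error 0.43, adjusted p = 0.0348, edgeR) at 45 d. The groups did not overlap, and the pair of 45 d HVC libraries differed 1.62-fold. Both calls were lost under each of the 5 other scalings and tests.

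PDE6D, the prenyl-binding carrier first found as a subunit of the photoreceptor enzyme, was likewise lower in HVC. It had 82 size-scaled reads in HVC at 100 d and 89.9 and 64.8 in the 45 d HVC pair, against 227 in whole brain at 100 d and 256 at 45 d. The log2 fold change was -1.47 (standard error 0.44, adjusted p = 0.0717, edgeR) at 100 d and -1.73 (standard error 0.33, adjusted p = 0.00119, edgeR) at 45 d. The lowest whole brain value lay well above the highest HVC value. The call at 100 d was lost under each of the 5 other scalings and tests, and that at 45 d under all but limma with voom.

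PDE11A, a phosphodiesterase of both cyclic nucleotides, was not called at either age. It had few reads, 6 size-scaled reads in HVC at 100 d and 6.42 and 7.10 in the 45 d HVC pair, against 32.6 in whole brain at 100 d and 25.5 at 45 d. Its log2 fold change was -2.42 (standard error 0.91, adjusted p = 0.342, edgeR) at 100 d and -1.89 (standard error 0.66, adjusted p = 0.176, edgeR) at 45 d. The 3 HVC values lay below both whole brain values, but the error at this depth was wide. PDE7B, specific for cyclic AMP, was tested against whole brain at 100 d only and was not called there, with 503 size-scaled reads in HVC and 275 in whole brain.

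PRKAR1A encodes a regulatory subunit that holds protein kinase A inactive until cyclic AMP binds, and it was called at 100 d. It had 1013 size-scaled reads in HVC at 100 d and 871 and 648 in the 45 d HVC pair, against 363 in whole brain at 100 d and 412 at 45 d. The log2 fold change was 1.48 (standard error 0.35, adjusted p = 0.00445, edgeR) at 100 d and 0.88 (standard error 0.31, adjusted p = 0.184, edgeR) at 45 d. Every HVC library was above both whole brain libraries, with a gap that was smaller at 45 d. The call was lost with TMM factors and with DESeq2. PRKAR2A, the regulatory subunit of the other main class, had counts at 100 d only and no test. Its 481 reads in HVC and 1308 in whole brain gave a ratio of 0.552 (exact 95% counting interval 0.497 to 0.614), which is the opposite direction from PRKAR1A.

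**Figure D2:**
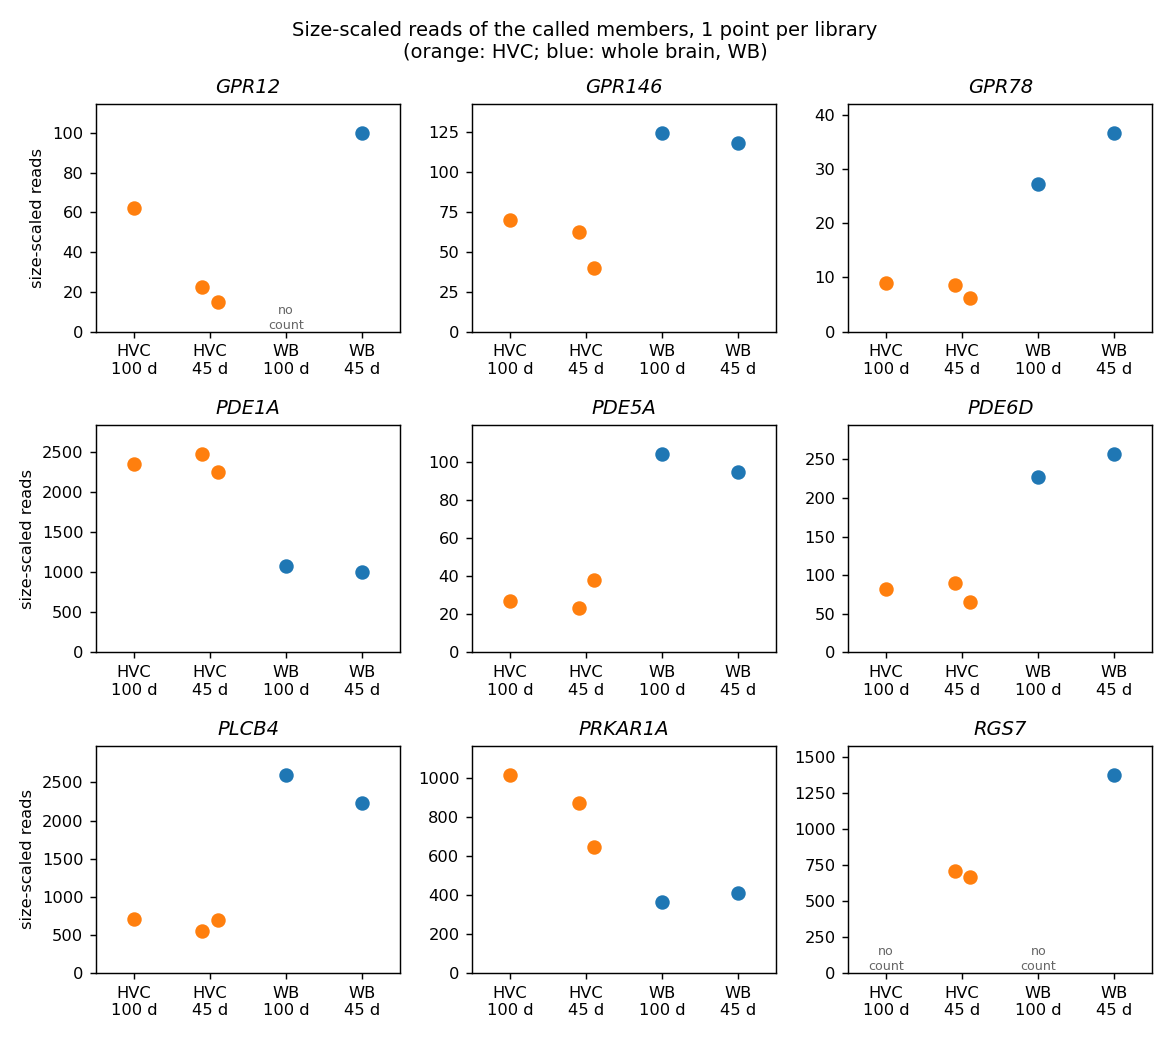
Size-scaled reads (y axis, linear from 0) of the 9 called members in HVC at 100 d, HVC at 45 d (2 libraries) and whole brain (100 d, then 45 d), 1 point per library; "no count" marks a library whose count is not at hand. PDE1A and PRKAR1A are higher in each HVC library than in either whole brain library, and the other 7 are lower in HVC wherever both tissues of an age have counts.

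Among the receptors, 3 orphan receptors were called, all lower in HVC at 45 d. GPR12, a receptor that raises cyclic AMP without an added ligand, had the largest fold of the called members. It had 22.5 and 15.1 size-scaled reads in HVC at 45 d, against a whole brain value of 99.7, a log2 fold change of -2.41 (standard error 0.45, adjusted p = 0.00118, edgeR). HVC at 100 d had 62 size-scaled reads, above both 45 d HVC libraries, and no count was at hand for whole brain at 100 d. Among the other scalings and tests, limma with voom alone kept the call at 45 d.

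GPR78 had 9 size-scaled reads in HVC at 100 d and 8.56 and 6.22 in the 45 d HVC pair, against 27.3 in whole brain at 100 d and 36.6 at 45 d. It was called at 45 d with a log2 fold change of -2.30 (standard error 0.62, adjusted p = 0.0353, edgeR), while at 100 d the log2 fold change was -1.59 (standard error 0.87, adjusted p = 1, edgeR). GPR146 had 70 size-scaled reads in HVC at 100 d and 62.1 and 40.0 in the 45 d HVC pair, against 124 in whole brain at 100 d and 118 at 45 d. Its log2 fold change of -1.22 at 45 d (standard error 0.38, adjusted p = 0.0962, edgeR) was just past the threshold, and that at 100 d was -0.82 (standard error 0.48, adjusted p = 1, edgeR). Both receptors had all HVC values below all whole brain values, and both calls were lost under each of the 5 other scalings and tests.

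The 3 adhesion receptors with HVC counts were not called, although each of their HVC values exceeded that of whole brain. GPR56, which binds collagen of the extracellular matrix and is needed for cortical layering in mammals, had 20.3 and 29.3 size-scaled reads in HVC at 45 d, against a whole brain value of 8.31 (log2 fold change 1.58, standard error 0.66, adjusted p = 0.365, edgeR). GPR64 had 21.4 and 25.8 in HVC at 45 d, against a whole brain value of 9.42 (log2 fold change 1.32, standard error 0.65, adjusted p = 0.653, edgeR). GPR116 had 54.6 and 79.9 in HVC at 45 d, against a whole brain value of 32.1 (log2 fold change 1.07, standard error 0.46, adjusted p = 0.381, edgeR).

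RGS7, a regulator that acts with the beta subunit GNB5, was lower in HVC at 45 d, the age with counts at hand for both tissues. It had 710 and 665 size-scaled reads in HVC, against 1372 in whole brain (log2 fold change -1.0, standard error 0.29, adjusted p = 0.0603, edgeR). The pair of HVC libraries lay close together. The call was lost under each of the 5 other scalings and tests, with a log2 fold change of -0.42 (adjusted p = 1, edgeR) under relative log expression factors. RGS12 was tested at 100 d only and was not called, with 1017 size-scaled reads in HVC and 621 in whole brain (log2 fold change 0.71, standard error 0.34, adjusted p = 0.91, edgeR).

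The peptide ligand and the peptide receptors were not called. PACAP, from ADCYAP1, had 24 size-scaled reads in HVC at 100 d and 22.5 and 17.8 in the 45 d HVC pair, against 50.6 in whole brain at 100 d and 47.6 at 45 d. Its log2 fold change was -1.07 (standard error 0.66) at 100 d and -1.25 (standard error 0.51, adjusted p = 0.337, edgeR) at 45 d, with no overlap of the groups. OPRM1, the mu opioid receptor, had 26.8 and 24.9 size-scaled reads in HVC at 45 d, against a whole brain value of 59.3 (log2 fold change -1.20, standard error 0.48, adjusted p = 0.308, edgeR).

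SSTR3, a somatostatin receptor that in mammals sits in the primary cilium of neurons, had 14 size-scaled reads in HVC at 100 d and 12.8 and 4.44 in the 45 d HVC pair, against 37.3 in whole brain at 100 d and 22.2 at 45 d. The pair of HVC libraries was 2.89-fold apart, the widest of the members for which a ratio of the pair could be taken. At 45 d the log2 fold change was -1.39 (standard error 0.68, adjusted p = 0.647, edgeR), and it was -2.30 without the library R92L1 and -0.78 without R92L2.

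The monoamine and adenosine receptors were sparse. DRD5, a dopamine receptor that stimulates adenylyl cyclase, had 50 size-scaled reads in HVC at 100 d and 16.1 and 20.4 in the 45 d HVC pair, against 43.3 in whole brain at 100 d and 28.8 at 45 d. Its log2 fold change was 0.21 (standard error 0.62) at 100 d and -0.65 (standard error 0.56) at 45 d, both with an adjusted p = 1 (edgeR), and its tissues overlapped. ADRA2C, an inhibitory noradrenaline receptor, had 0 and 1 read in HVC at 45 d, against a whole brain value of 14, which gave a ratio of 0.0626 (exact 95% counting interval 0.00148 to 0.411). ADORA1, the adenosine receptor that lowers cyclic AMP, had 59 reads in HVC at 100 d, against a whole brain value of 40, for a ratio of 2.22 (exact 95% counting interval 1.46 to 3.40). These ratios compare single libraries, or 1 library with the pair, and have no test across replicates.

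For adenylyl cyclases, 1 library of the pair decided the value. ADCY7, a cyclase that beta-gamma subunits and protein kinase C can boost, had 74.9 size-scaled reads in R92L1 and 202 in R92L2 of HVC at 45 d, against 64.3 in whole brain at 45 d. The log2 fold change was 1.11 (standard error 0.41, adjusted p = 0.223, edgeR), and it was 1.65 without R92L1 and 0.22 without R92L2.

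G protein subunits were mostly out of reach of a test between tissues. GNG10, a gamma subunit, had 33 size-scaled reads in HVC at 100 d, against a whole brain value of 69.2 (log2 fold change -1.07, standard error 0.55, adjusted p = 1, edgeR). GNG13, a gamma subunit known from taste and retinal bipolar cells in mammals, had no read in any of the 3 HVC libraries, against 12 reads in whole brain at 100 d and 11 at 45 d. With 3 counts over the group put in place of 0, this is 2.66-fold lower in HVC at 100 d and 4.18-fold lower at 45 d. The exact 95% counting interval of the ratio reached up to 0.541 at 100 d and 0.349 at 45 d. The gene model spans only 111 bases. GNG12, another gamma subunit, had 9 reads in HVC at 100 d, against a whole brain value of 3, for a ratio of 4.51 (exact 95% counting interval 1.12 to 25.9).

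The second question was which of these genes differ between adult and juvenile HVC. None of the 20 tested members was called by edgeR, DESeq2 or limma with voom at an adjusted p under 0.1, and edgeR called 0% of the 2144 tested transcripts. At an unadjusted p under 0.05 (edgeR), 6 of the 20 members passed, all with more at 100 d, where 21% of the tested transcripts passed, 11.4% with more and 9.61% with less at 100 d. Of the 20 members, 16 had a log2 fold change above 0 and 4 below, and their median was 0.69, against 0.07 for all transcripts, of which 52.5% lay above 0. The 16 and 4 were the same counts under each other scaling. Those scalings moved the median of all transcripts by only -0.05 to -0.08. The member value above 0 that lay nearest to it was 0.09 (PDE6D), so the counts could not change. Many of these members had counts at hand because small p-values of this same comparison listed them. The split is therefore no separate support. With 1 library at 100 d, the spread came from the 45 d pair alone.

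**Figure D3:**
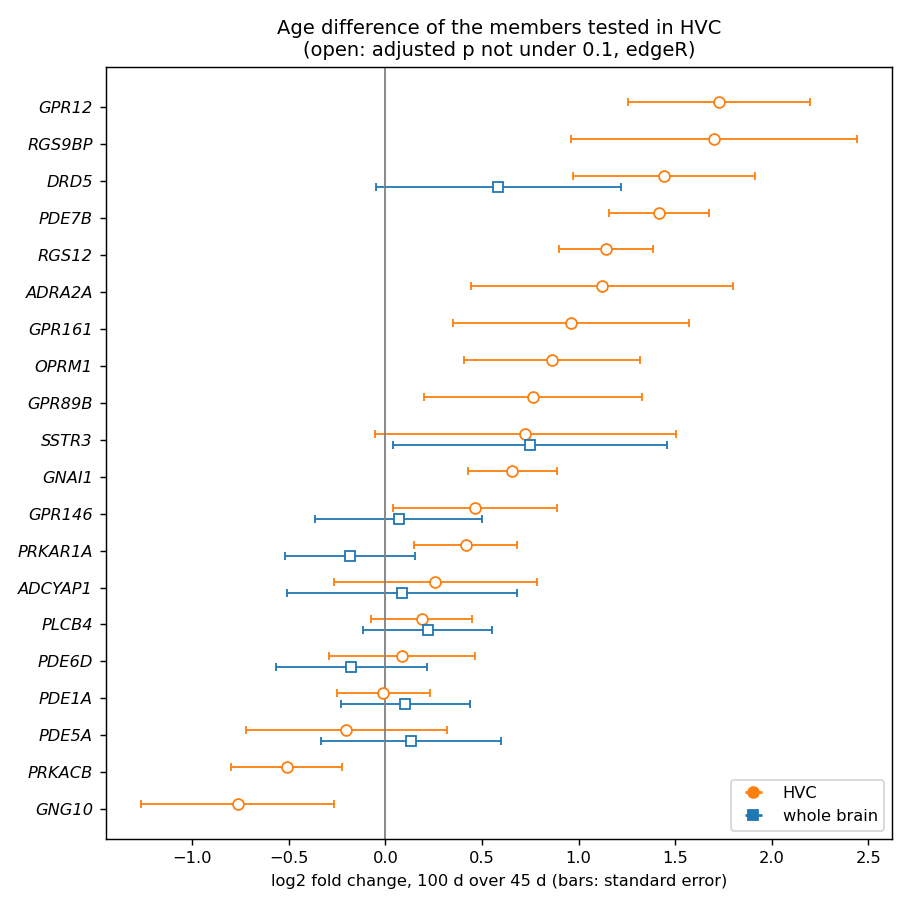
Log2 fold change of 100 d over 45 d (x axis) for the 20 members tested in HVC (circles), with that in whole brain (squares) where it could be fitted; bars are 1 standard error, and no member has an adjusted p under 0.1. GPR12, RGS9BP, DRD5, PDE7B and RGS12 lie at the top of the HVC values, and PRKACB and GNG10 lie lowest.

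PDE7B had the smallest p of these members. It had 503 size-scaled reads in HVC at 100 d, against 177 and 200 in HVC at 45 d (log2 fold change 1.42, standard error 0.26, adjusted p = 0.372, edgeR). RGS12, a large regulator of inhibitory G proteins, had 1017 size-scaled reads in HVC at 100 d, against 496 and 426 in HVC at 45 d (log2 fold change 1.14, standard error 0.25, adjusted p = 0.881, edgeR). In both genes the adult library exceeded each juvenile library by more than the juvenile libraries differed from each other. This goes with their small p-values and is no separate support.

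GPR12 was at 62 size-scaled reads in HVC at 100 d, against 22.5 and 15.1 in HVC at 45 d (log2 fold change 1.73, standard error 0.47, adjusted p = 1, edgeR). DRD5 was at 50, against 16.1 and 20.4 in HVC at 45 d (log2 fold change 1.44, standard error 0.47, adjusted p = 1, edgeR). GNAI1, the alpha subunit of the class that inhibits adenylyl cyclase, was at 3667 in HVC at 100 d, against 2291 and 2360 in HVC at 45 d (log2 fold change 0.66, standard error 0.23, adjusted p = 1, edgeR). RGS9BP was at 16, against 4.28 and 5.33 in HVC at 45 d, from 16 reads against 4 and 6. None of these 6 genes passed the adjusted test. They are the members with an unadjusted p under 0.05 (edgeR), so an adult value above both juvenile values follows from that choice.

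Marker genes of other cells also had different values at the 2 ages in HVC, without passing the edgeR test. Of 15 striatal marker symbols, 8 had counts at hand and 3 were tested in HVC, with log2 fold changes of 2.70 for TAC1, 1.81 for DRD2 and 1.7 for PDE10A, none of them called (edgeR). With DESeq2, 1 of these 3, not TAC1, was called higher at 100 d. The other scalings and limma with voom called none. The summed size-scaled reads of the 2 with counts in all 5 libraries, PDE10A and TAC1, were 885 in HVC at 100 d, against 256 and 267 in HVC at 45 d. In whole brain the sum was 614 at 100 d, against 474 at 45 d. TAC1 was higher in HVC than in whole brain at 100 d (edgeR), a call lost under 3 of the 5 other scalings and tests, and its call for the dependence of age on tissue was lost under all 5.

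Astrocyte markers had the opposite sign. Of 6 symbols, 4 were tested in HVC, with log2 fold changes of -0.89 for SLC1A3, -0.78 for SLC1A2, -0.61 for GJA1 and -0.47 for AQP4, none called (edgeR). Their summed size-scaled reads were 10714 in HVC at 100 d, against 15189 and 21735 in HVC at 45 d. The endothelial marker PECAM1 had a log2 fold change of -0.96 and was not called either. The part of striatal cells, astrocytes and endothelium in the members' age values was not tested.

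On the other side of 0, PRKACB, a catalytic subunit of protein kinase A, had 329 size-scaled reads in HVC at 100 d, against 401 and 535 in HVC at 45 d (log2 fold change -0.51, standard error 0.29, adjusted p = 1, edgeR). GNG10 had 33, against 40.7 and 71.0 in HVC at 45 d (log2 fold change -0.76, standard error 0.50, adjusted p = 1, edgeR). The genes that were called between tissues at both ages had values near 0 here. Their log2 fold changes with age in HVC were 0.19 for PLCB4, -0.01 for PDE1A, -0.20 for PDE5A and 0.09 for PDE6D, with standard errors of 0.24 to 0.52.

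Other receptors tested with age in HVC were mostly sparse. OPRM1 had 47 size-scaled reads in HVC at 100 d, against 26.8 and 24.9 in HVC at 45 d (log2 fold change 0.86, standard error 0.45), and GPR146 had 70, against 62.1 and 40.0 (log2 fold change 0.46, standard error 0.42). The value of SSTR3, 0.73 (standard error 0.78), was 1.63 without R92L1 and 0.12 without R92L2. In these 3 the adult value was above both juvenile values without a call. The share of all tested transcripts in that order was not counted, so this is no result about the receptors. ADRA2A, an inhibitory noradrenaline receptor, had 16 size-scaled reads in HVC at 100 d, against 7.49 and 7.10 in HVC at 45 d. GPR161, a ciliary receptor that holds Hedgehog signalling in check in mouse, had 19, against 9.64 and 9.77 in HVC at 45 d. In GPR89B, which had 32 against 25.7 and 12.4 in HVC at 45 d, the pair was 2.07-fold apart. None of these receptors was called (adjusted p = 1 each, edgeR). Below the filter on low counts, ADRA2C had 6 reads in HVC at 100 d, against 0 and 1 in HVC at 45 d, and GPR143 had 5 against 0 and 1.

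The third question was age in whole brain, where no group was repeated and the spread was borrowed from the 45 d HVC pair. Of the 21 members listed for this comparison, 17 lacked 45 d HVC counts and could not be tested. The test thus left out most members that the authors' ranking had listed for age in whole brain. None of 14 tested members was called by edgeR at an adjusted p under 0.1, and 0.152% of the tested transcripts were. None of them passed an unadjusted p under 0.05 (edgeR) either, which 7.06% of the tested transcripts did. Neither DESeq2 nor limma with voom called a member. The median log2 fold change of these members was 0.18, against -0.03 for all transcripts, with 11 above and 3 below 0, or 7 above and 6 below 0 when sums of listed counts set the scale. The values ranged from -0.42 for GPR78 to 0.75 for SSTR3.

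A further 17 members had counts in whole brain only, so that HVC was not analysed here for them and their ratios have exact counting intervals but no test. The ratio of 100 d over 45 d was above 1 for 11 of them and below 1 for 6, with an interval above 1 for 7 and below 1 for 4. They stood in the table because the authors' test ranked them high, so these counts do not describe the gene families. An interval that leaves out 1 goes with that ranking and is no separate support. The share of other listed transcripts with such an interval was not counted.

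NPY1R and NPY5R, receptors of neuropeptide Y that lower cyclic AMP, are neighbours on chromosome 4 (taeGut1), NPY1R at 31188259 to 31189536 on the minus strand and NPY5R at 31204077 to 31205402 on the plus strand, with 14540 bases between them. Both had more reads in adult whole brain. NPY1R had 85.2 size-scaled reads at 100 d, against 55.4 at 45 d (ratio 1.54, interval 1.18 to 2.02), and NPY5R had 47.3 at 100 d, against 23.8 at 45 d (ratio 1.98, interval 1.34 to 2.97).

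Among signal transducers, GNB5, the beta subunit that pairs with RGS7, had 770 size-scaled reads in whole brain at 100 d, against 492 at 45 d (ratio 1.56, interval 1.43 to 1.71). GNB4, a beta subunit that pairs with gamma subunits in the usual way, had 36.6, against 55.4 at 45 d (ratio 0.661, interval 0.467 to 0.928). The phosphodiesterase PDE8B, which has a high affinity for cyclic AMP, had 180, against 102 at 45 d (ratio 1.77, interval 1.46 to 2.15). The cyclase ADCY9 had 79.2, against 116 at 45 d (ratio 0.684, interval 0.542 to 0.861). The 2 beta subunits thus lay on opposite sides of 1.

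HRH3, the histamine receptor that limits transmitter release, had, in whole brain, 15 reads at 100 d against 48 at 45 d (ratio 0.376, interval 0.195 to 0.682). GPR1, a receptor for the adipokine chemerin, had 3 reads at 100 d, against 19 at 45 d (ratio 0.190, interval 0.0360 to 0.645), the lowest ratio of the 17. The orphan GPR22 had 710 size-scaled reads at 100 d, against 529 at 45 d (ratio 1.34), GPR155 had 202 against 142 at 45 d (ratio 1.42), and GPR34, a receptor of microglia in mammals, had 73.9 against 52.6 at 45 d (ratio 1.40), each with an interval above 1. For GPR18, GPR37, GPR111, GPR133 and ADRBK1, with ratios between 0.451 and 2.23, the interval included 1.

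**Figure D4:**
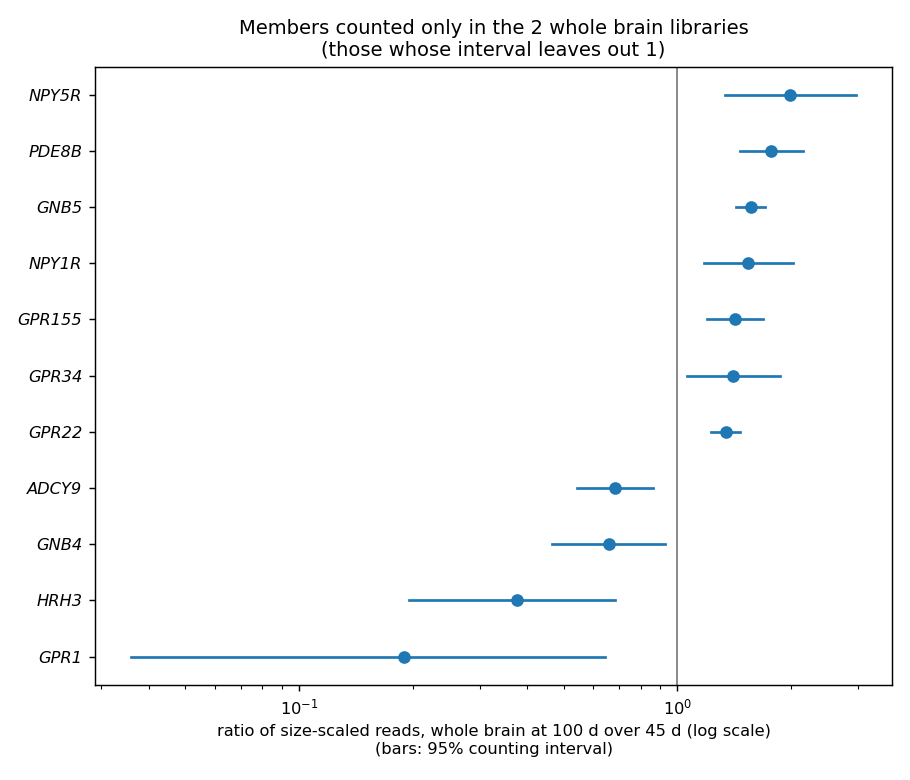
Ratio of size-scaled reads in whole brain, 100 d over 45 d (x axis, log scale), for the 11 members with counts in whole brain only whose interval leaves out 1; bars are exact 95% counting intervals and do not cover the spread between birds or libraries. The interval lies above 1 for 7 members, among them NPY5R, PDE8B and GNB5, and below 1 for 4, among them HRH3 and GPR1.

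Whether the age difference itself depends on tissue could be tested for 11 members with counts in all 5 libraries. None was called by edgeR, DESeq2 or limma with voom, where edgeR called 0.34% of all tested transcripts, and none passed an unadjusted p under 0.05 (edgeR), which 8.33% did. The largest values were 0.86 for DRD5 (standard error 0.84), 0.71 for GPR78 (standard error 1.09) and 0.60 for PRKAR1A (standard error 0.44), all positive, which means a log2 age difference that is more positive in HVC. The standard errors over the 11 members ranged from 0.44 to 1.29.

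Effectors and regulators outside the symbol rule were read from a list of 81 symbols, of which 27 had counts at hand. At 100 d, 1 of 8 tested transcripts was lower in HVC and none higher, where 11.1% of all tested transcripts were lower and 8.3% higher. At 45 d, 5 of 12 were lower and 1 was higher in HVC, where 20.2% of all were lower and 10.8% higher. Under the other scalings and tests, 0 or 1 transcript of the list was called in either direction at each age. The lower ones at 45 d were PLCH2, an eta phospholipase C (log2 fold change -2.22), ITPR3, a channel that inositol trisphosphate opens (-2.08), PRKCD, a protein kinase C (-1.7), and the phospholipase C-like proteins PLCL1 (-1.04) and PLCL2 (-0.99), and PLCH2 was the lower one at 100 d (-1.94). The higher one at 45 d was GUCY1B3, a subunit of the guanylyl cyclase that nitric oxide activates (1.06). None of the list was called with age, 0 of 15 in HVC and 0 of 7 in whole brain, or for the dependence of age on tissue, 0 of 7 (edgeR).

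A few members lie near each other in taeGut1. Besides the neuropeptide Y receptors, GPR111 and GPR116 on chromosome 3 are 230173 bases apart, and GPR78, ADRA2C and RGS12 follow each other on chromosome 4 with 450575 and 439934 bases between them. GPR78 was called lower in HVC at 45 d, an age at which RGS12 had no whole brain count. At 100 d the log2 fold change of HVC over whole brain was -1.59 for GPR78 and 0.71 for RGS12, neither called (edgeR).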

How the data were processed

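Total RNA (Trizol) was amplified with a NuGEN Ovation kit, and per the study's methods trimmed reads were mapped to taeGut1 with ELAND2 and tested with edgeR. The values used are raw read counts per Ensembl transcript deposited by the authors. The tables also hold the authors' log2 fold changes with their p-values, unadjusted and adjusted, which were not used, except that the row order by p-value was checked. Counts were at hand for transcripts chosen by small p-values, so counts of calls describe a selected set. Symbols and positions come from the tables.

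Library sizes were set from the counts. The size ratio within the pair was the median count ratio (20 or more reads), and each table's ratio between groups was the centre of the widest gap in log2 ratios (200 or more reads), joined by least squares. Each comparison was fitted with edgeR 4.0.16 in R 4.3.3 (glmQLFit, glmQLFTest, filterByExpr, 1 mean per group), always with both 45 d HVC libraries, the repeated group. Benjamini-Hochberg adjustment used 19431 tests, the highest Ensembl transcript serial number listed, taken as an upper limit. Transcripts outside the tables thus count as not passing, and calls have an adjusted p under 0.1. A standard error is the log2 fold change over the square root of F. Members without a test have ratios with exact (Clopper-Pearson) 95% counting intervals, and groups without reads a floor of 3 counts. The fit was run on simulated data with adjustment over fitted transcripts only, which does not check the calls made with 19431 tests. DESeq2 1.42.0, limma 3.58.1 with voom, TMM, relative log expression and listed-sum scalings, no filter, other numbers of tests, 1 joint fit and each 45 d HVC library left out were tried. Members with full values are those called, and up to 3 others per role group with the largest fold and a mean of 20 or more reads; others are given by counts, ranges or reads, and some of these were chosen after their values were seen. The other scalings and tests were applied to the marker and pathway lists after seeing the data. The members and lists were chosen with earlier results of these data known. Of the other marker lists, those of astrocytes, dividing cells, endothelium, choroid plexus and microglia were also counted. PECAM1 was higher in HVC at 45 d (also with relative log expression factors, not otherwise), TTR-1 was lower at both ages, and the rest of those tested gave no call. No microglial transcript could be tested. Endothelial transcripts were tested only between tissues at 45 d and with age in HVC. The values of 2 members are not reported here. Figures were drawn in Python 3.11.15 with matplotlib 3.10.9, and intervals were computed with scipy 1.17.1.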

Additional observations from a re-analysis of the deposited data

How the results depend on the processing

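The counts of called members depended on the scaling, the test and the number of tests. At 45 d the 8 members called between HVC and whole brain became 1 with TMM factors, 1 with relative log expression factors, 0 with sums of listed counts, 1 with DESeq2, 4 with limma and voom, and 17 when only fitted transcripts counted as tests. At 100 d the 5 became 0, 1, 2, 1, 3 and 11 in the same settings. For age in HVC the 0 became 2 (PDE7B and RGS12) when only fitted transcripts counted as tests. The share of all tested transcripts called in that setting was not taken, so its counts of 17, 11 and 2 are no result about the members. Of the 13 calls, 6 were lost under each of the 5 other scalings and tests. These were PDE5A at both ages, PDE6D at 100 d, and GPR78, GPR146 and RGS7 at 45 d. Every call was lost under at least 2 of the 5. No named member's fold change between HVC and whole brain turned its direction under any alternative. The shifts between scalings were too small to turn one, so this is no support for the direction. With age, values near 0 that were not called did turn, those of PDE1A, PDE5A and PDE6D in HVC without 1 of the 45 d libraries and those of PDE1A, GPR146 and ADCYAP1 in whole brain with sums of listed counts, and so did the tissue dependence of age for PDE1A, PDE5A, PLCB4 and SSTR3 under some settings. Why the scalings differ was not tested. Leaving out either 45 d HVC library moved ADCY7, and leaving out R92L1 moved SSTR3, and these fits have no residual degrees of freedom and so no test. No paired analysis was possible because only the 45 d HVC group carries replicate numbers. Low reads limit GPR78, PDE11A, SSTR3 and the receptors under the filter.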
